A study of Mus musculus with 21 samples.

Results

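The comparison described here sets the glioma stem-like line PIC496-4 against the line PC134-0, the pair of lines in the series whose transcriptomes were least alike. The pair was chosen from the measured values: PIC496-4 had the lowest and PC134-0 the highest level of Cgas, and their correlation was the lowest of all line pairs. It holds 6 of the 21 libraries, 3 of each line, and 13343 of the 54532 genes in the deposited file. Those genes are autosomal and had a mean of at least 0.5 FPKM (fragments scaled to gene length in kilobases and to library size) in one of the 2 lines. Because measured values chose the pair, every difference between the 2 lines is given as a description, without a test. Tests are given only in the 15 libraries of the other 5 lines.

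All 7 lines of the series are cultures of mouse glioma cells, each started from a brain tumour of a genetically engineered mouse model. The labels give PIC496-4 as IDH1 mutant, with PIC144-1, PIC144-3 and PIC496-3, and PC134-0 as IDH1 WT, with PC308-1 and PC326-1. Every line was grown without treatment, as floating cultures in neural stem cell medium with EGF, bFGF and heparin at 5% oxygen. Libraries were made from polyA RNA depleted of rRNA, kept the strand, and were read as pairs on a NovaSeq instrument. The labels give no further alleles, no founder animals and no age of the mice. The labels call the 3 libraries of a line biological replicates and do not say how they were separated. Genotype and line therefore cannot be told apart in this pair.

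IDH1 is a cytosolic isocitrate dehydrogenase, and the mutant enzyme of gliomas turns 2-oxoglutarate into 2-hydroxyglutarate, which inhibits many dioxygenases, among them DNA and histone demethylases. Cgas encodes cyclic GMP-AMP synthase, which binds double-stranded DNA in the cytosol and makes a messenger that activates STING. STING signalling induces type I interferon, and interferon in turn induces a large set of antiviral and antigen-presentation genes. Glioma stem-like cells share transcription factors with neural stem cells and oligodendrocyte progenitors, such as Sox2 and Olig2, and depend on growth factor, Notch, BMP and Wnt signals for their state.

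The libraries of the pair held 15192718 to 18658489 fragments each, within the 15011668 to 21966351 of all 21. Mitochondrial genes took 0.961 to 1.25% of fragments in PIC496-4 and 1.39 to 1.64% in PC134-0. PIC496-4 had 12563 to 12651 genes at 0.5 FPKM or more and PC134-0 had 13209 to 13359. The second PIC496-4 library stood apart from the other libraries of its line, with a chi-square per gene of 26.9 and 22.8 against them, where those other libraries gave 4.17 against each other. The short gene Gm23935 took 7.01% of its summed FPKM and up to 14.8% in the other libraries of that line. The number of genes counted was also computed without that library. PIC496-4 had Xist, which coats the inactive X, at 15.6 ± 3.57 FPKM (SD, n = 3) and no fragment of the Y-linked gene Ddx3y, which PC134-0 had at 27.1 FPKM. Only autosomal genes enter the comparison.

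The distance between the lines came first. Over 12851 autosomal genes, the Pearson correlation of mean log2(FPKM + 0.5) was 0.891 between PIC496-4 and PC134-0. Between single libraries of the 2 lines it lay between 0.876 and 0.888. It was the lowest of the 21 line pairs, and the next lowest, at 0.905, was PIC496-4 with another IDH1 WT line, PC326-1. These correlations are across genes, which are not independent replicates, and they are descriptions.

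**Figure D1:**
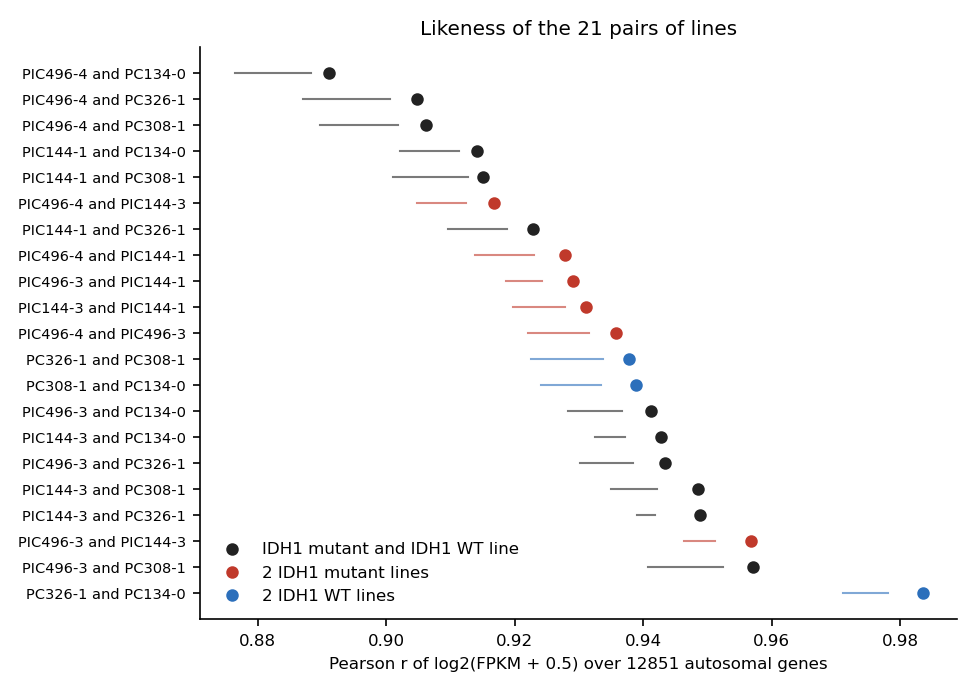
Pearson correlation of mean log2(FPKM + 0.5) over 12851 autosomal genes for each of the 21 pairs of lines. Points are correlations of line means, and thin lines span the correlations of single libraries. The pair PIC496-4 and PC134-0 lies lowest, at 0.891, and the highest pair is at 0.983.

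A gene was counted as higher or lower when the means of log2(FPKM + 0.5) lay at least 1 apart, which is 2-fold, and the 3 libraries of one line did not overlap the 3 of the other. By this rule 942 genes (7.06% of 13343) were higher in PIC496-4 and 1606 (12%) were lower, 2548 (19.1%) in all. Counts for gene lists below are to be read against these shares, and a count near them is no trait of its list. Non-overlap alone was met by 9046 genes (67.8%). The median standard error of a gene's log2 difference was 0.11, and the median size of the difference was 0.47. Without the second PIC496-4 library, 1014 genes were higher and 1599 lower. Below, where a pair of values is given for a gene, the first is the mean of the 3 PIC496-4 libraries and the second that of the 3 PC134-0 libraries.

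The large differences were mostly genes lower in PIC496-4. At a limit of 4-fold, 130 genes were higher in PIC496-4 and 477 were lower. Of the 1606 lower genes, 678 had a mean under 0.5 FPKM in PIC496-4, and 72 of these had no fragment there. Of the 942 higher genes, 214 had a mean under 0.5 FPKM in PC134-0, and 22 had no fragment there. Protein-coding genes made up 779 of the higher and 1453 of the lower genes. At the 2-fold edge the log2 differences just inside were -1.00005 for Vopp1, 1.0003 for Robo1 and -1.0004 for Asah2. Just outside, at 0.999, were Raet1e, Mphosph10 and Kcnk3.

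**Figure D2:**
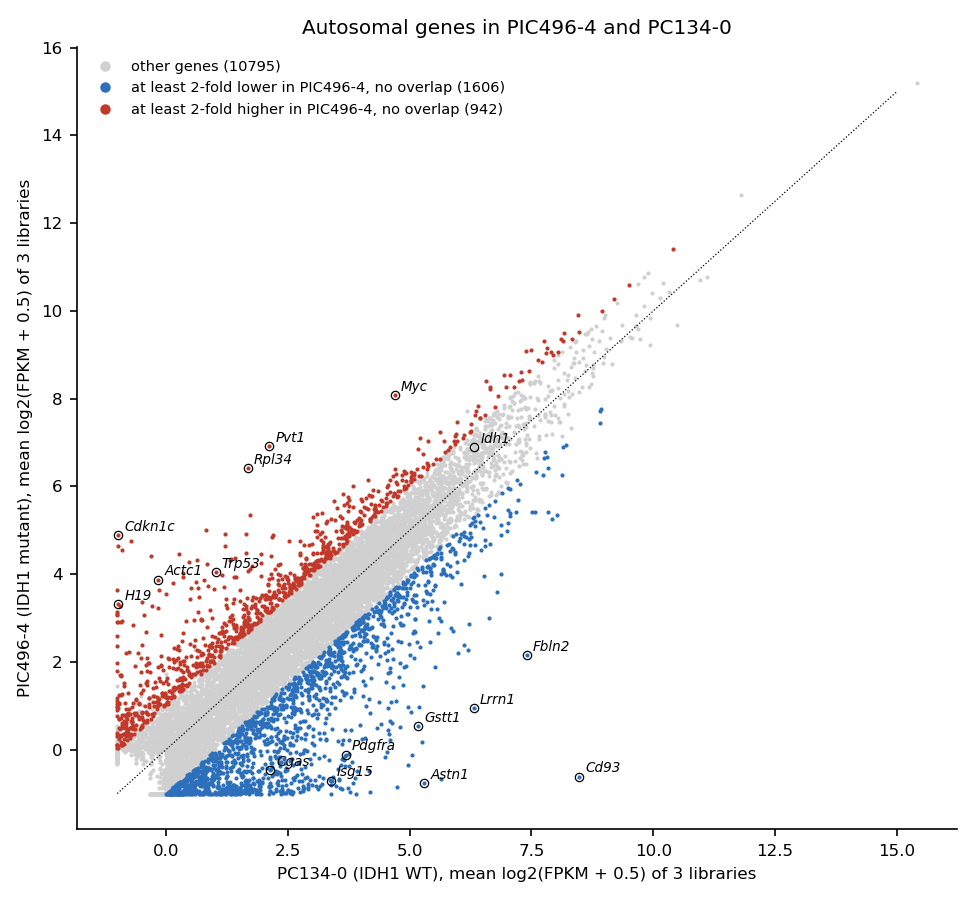
Mean log2(FPKM + 0.5) of each of 13343 autosomal genes in PC134-0 (x axis) and PIC496-4 (y axis), 3 libraries each. Coloured points are the 942 genes counted higher and the 1606 counted lower in PIC496-4, and some of the genes with the largest differences are named.

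Cgas itself lies on the minus strand of chromosome 9, at 78430526 to 78443237 (GRCm38, as for all positions here). It was at 0.132, 0.266 and 0.289 FPKM in the 3 PIC496-4 libraries and at 3.63, 4.21 and 3.90 FPKM in those of PC134-0. The lines did not overlap, with 51 fragments in PIC496-4 and 825 in PC134-0 behind these values. The log2 difference was -2.60. Idh1 was at 114, 128 and 117 FPKM in PIC496-4 and at 82.0, 79.9 and 77.6 FPKM in PC134-0, a log2 difference of 0.58 with no overlap and under 2-fold. FPKM do not show the mutation and so do not check the genotype labels.

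A second pair, PIC496-3 and PC326-1, has the same genotypes in other libraries. All lines were ranked by Cgas and by correlation to choose the first pair, so these libraries are separate but not blind to the choice. PIC496-3 shares the number in its name with PIC496-4, and PC326-1 had the highest correlation of all line pairs with PC134-0 (0.983). Cgas was at 1.07 ± 0.135 FPKM in PIC496-3, against 3.24 ± 0.105 FPKM in PC326-1 (SD, n = 3 each), given as a description because the choice ranked the lines by it. Idh1 was higher in PIC496-3 by 0.69 (limma adjusted p = 9.36e-07), again under 2-fold. These p-values measure only the spread between libraries of a line, which may be technical, and genotype and line cannot be told apart in this second pair either. A gene is said to pass in it at an adjusted p under 0.05 and at least 2-fold. Of 14398 genes tested there, 625 (4.34%) passed as higher in PIC496-3 and 627 (4.35%) as lower, 1252 (8.7%) in all. List counts given for this second pair are to be read against these shares in the same way.

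The rest of the DNA-sensing pathway did not follow Cgas. Of 20 listed genes of cytosolic DNA sensing, 12 were measured above the level limit in the pair and Cgas alone was counted. Sting1, the adaptor downstream of Cgas, was at 54.4 FPKM in PIC496-4, against 55.5 FPKM in PC134-0. Apart from Cgas, no member of the 15 tested passed in PIC496-3 against PC326-1.

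The sensors of double-stranded RNA were lower more widely. Of 18 listed, 13 were measured above the limit, 7 were counted lower and 0 higher, with a median log2 difference of -1.13 against 0.00 over all genes. Against the mean of the 7 lines, the median of the list was 0.84 (log2) in PC134-0 and -0.37 in PIC496-4. The other 5 lines lay between -0.20 and 0.27. Tlr3, the endosomal receptor for double-stranded RNA, was at 1.41, 2.06 and 1.46 FPKM in PIC496-4 and 23.8, 26.6 and 22.1 FPKM in PC134-0. Every PC134-0 library was far above every PIC496-4 library, and the log2 difference was -3.53. Ddx58, which encodes the cytosolic RNA sensor RIG-I, was at 0.368 and 4.89 FPKM (log2 difference -2.62). Zcchc3, a partner of nucleic acid sensors, was at 0.829 and 6.82 FPKM (-2.50). Of 10 members tested in PIC496-3 against PC326-1, 2 passed, both lower: Tlr3 by 1.58 (limma adjusted p = 4.40e-08) and Zcchc3 by 1.62. Ddx58 was at -0.79 there, under 2-fold.

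Interferon-stimulated genes, the antiviral genes that interferon turns on, were the list with the highest share of lower members among the immune lists. Of 38 listed, 30 were measured above the limit, 25 were counted lower and 0 higher in PIC496-4. The median log2 difference was -1.67, or -1.90 with genes of no fragment in PIC496-4 put at the bound that 3 fragments set. Summed over the list, the 3 PIC496-4 libraries held 133 to 160 FPKM and those of PC134-0 held 341 to 372 FPKM. The list was chosen with these results known, so its direction is not independent support.

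For 3 of the 4 members with the largest differences, the stretch before the start of the gene is shown here with matches to the interferon-stimulated response element, the site bound by interferon regulatory factors and the ISGF3 complex. The letters searched were GAAANNGAAA on both strands in the 250 bases before each start, overlapping matches included, and capitals mark the matches. The sequences are RefSeq promoters of GRCm38.p6, written 5′ to 3′ on the gene's strand. Isg15 lies at chr4:156200830-156200941 (minus strand) with 3 overlapping matches that start 78 to 66 bases before the gene. Rsad2 lies at chr12:26456518-26456617 (minus strand) with 1 match 120 bases before it. Ifit1 lies at chr19:34640740-34640858 (plus strand) with 2 matches, 104 and 85 bases before it.
Isg15: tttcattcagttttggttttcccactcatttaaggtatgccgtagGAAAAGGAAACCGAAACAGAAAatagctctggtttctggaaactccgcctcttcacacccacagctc
Rsad2: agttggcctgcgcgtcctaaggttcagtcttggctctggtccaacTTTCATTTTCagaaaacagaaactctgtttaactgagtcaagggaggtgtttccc
Ifit1: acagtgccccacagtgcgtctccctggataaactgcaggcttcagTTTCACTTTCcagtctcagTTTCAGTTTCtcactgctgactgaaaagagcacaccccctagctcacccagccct

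The motif was in 978 of 32851 RefSeq promoters (2.98%). Among genes of the pair with a promoter in the table it was in 274 of 9255 (2.96%), in 61 of the 1139 counted lower (5.36%) and in 10 of the 624 counted higher (1.603%). Of the interferon-stimulated genes 30 had a promoter in the table and 14 of these the motif, and of the members counted lower 20 and 12. Ifit2 had no match in either of its windows, which says only that these letters are not there. A match is not a bound site, and the interferon-stimulated genes are known for this motif.

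Isg15, a ubiquitin-like protein attached to other proteins after interferon, was at 0, 0.218 and 0.143 FPKM in PIC496-4 and at 8.60, 11.4 and 9.96 FPKM in PC134-0 (log2 difference -4.09). The other 5 lines had Isg15 at 0.552 to 3.81 FPKM. Ifit2, which binds viral RNA, was at 0.0771, 0.0698 and 0.0138 FPKM against 6.85, 7.33 and 6.79 FPKM (-3.76). Rsad2, the antiviral enzyme viperin, was at 0.293, 0.291 and 0.213 FPKM against 5.82, 8.46 and 6.24 FPKM (-3.25). All 3 were near 0 in PIC496-4 and low but plainly measured in PC134-0. Ifit1 was at 0.0456, 0 and 0.0204 FPKM against 3.32, 6.56 and 3.63 FPKM (-3.20), the widest spread of the 4 within PC134-0. With levels this near 0, the log2 differences depend on the 0.5 added.

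In PIC496-3 against PC326-1, 24 of the interferon-stimulated genes were tested, 8 passed as lower and 0 as higher. Isg15 was lower there by 2.04 (SE 0.27, limma adjusted p = 3.00e-05), Ifit2 by 1.76 (1.99e-07), Rsad2 by 1.55 (1.03e-06) and Ifit1 by 1.41 (1.54e-06). The fold of Ifit1 was under 2 with a pseudocount of 1. The direction was the same in both pairs, and each difference was smaller in the second.

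Class I antigen presentation, which loads peptides onto surface molecules for T cells, was also lower in PIC496-4. Of 22 listed genes 19 were measured above the limit, 10 were counted lower and 0 higher, with a median log2 difference of -1.25. B2m, the invariant chain of class I molecules, was at 44.0, 40.9 and 41.4 FPKM in PIC496-4 and at 218, 242 and 227 FPKM in PC134-0. This is a difference of -2.43 on the log2 scale at levels well above 0. H2-Q4, a class I molecule, was at 0.855 and 5.98 FPKM, and Tap2, a peptide transporter subunit, at 0.272 and 2.72 FPKM. Erap1, the peptidase that trims peptides for class I, was at 1.34 and 6.33 FPKM. Of 20 members tested in PIC496-3 against PC326-1, 2 passed, both lower: B2m by 1.31 (limma adjusted p = 6.16e-08) and Erap1 by 1.72.

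Of 27 listed chemokines and cytokines 15 were measured above the limit, 9 were counted lower and 1 higher. Cxcl10, an interferon-induced chemokine that draws T cells, was at 0.323, 0.171 and 0.144 FPKM in PIC496-4 and at 11.1, 19.03 and 15.04 FPKM in PC134-0 (log2 difference -4.42). Cxcl14 was at 0.00989 and 5.60 FPKM, and the T-cell chemokine Ccl5 at 0.0188 and 3.93 FPKM. The alarmin Il33 was at 0.532 and 4.90 FPKM. The member counted higher was Tgfb3, a ligand of the TGF-beta family, at 15.5 and 4.44 FPKM. Of 17 members tested in PIC496-3 against PC326-1, 6 passed as lower and 0 as higher, among them Cxcl10 by 2.48 (limma adjusted p = 1.43e-07) and Cxcl14 by 3.55.

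Other cells in the cultures were checked by their markers, since in bulk samples fewer cells of a type and less RNA per cell cannot be told apart. Of 15 microglia and macrophage genes, 7 had no fragment in either line: Cx3cr1, Itgam, Adgre1, C1qa, C1qb, C1qc and Tyrobp. The list summed to 0.73 to 1.06 FPKM in PIC496-4 and 5.76 to 7.11 FPKM in PC134-0, mostly from Cd68, a lysosomal protein, at 0.841 and 5.05 FPKM. P2ry12, a receptor of microglia, was at 0.0230 and 1.36 FPKM. Of 11 endothelial genes, which summed to 0.19 to 0.32 and 2.38 to 2.77 FPKM, Cldn5 had no fragment in either line. The 14 pericyte and fibroblast genes summed to 24.5 to 25.9 FPKM in PIC496-4 and 46.4 to 47.1 FPKM in PC134-0. Most of this was Fbln1, at 20.6 and 43.2 FPKM. Of the 4 members measured above the limit, 2 were counted lower, Fbln1 among them, and 2 higher, Col1a1 and Acta2. The part of these cells in the lower immune genes was not tested beyond these levels.

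**Figure D3:**
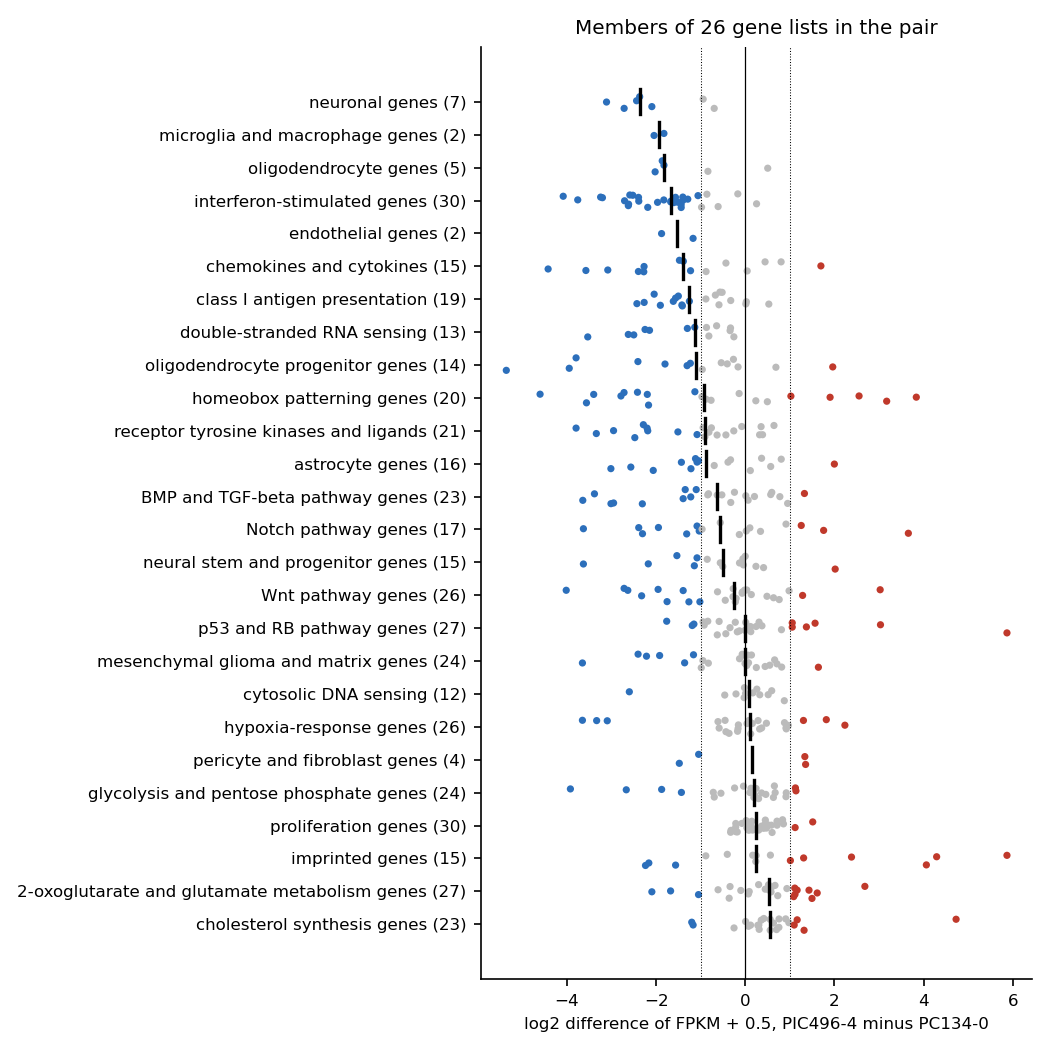
Log2 differences (PIC496-4 minus PC134-0, of FPKM + 0.5) of the members of 26 gene lists measured above 0.5 FPKM in the pair. Red dots are members counted higher, blue dots members counted lower and grey dots neither, black bars are medians and dotted lines mark a 2-fold difference. Of the 30 interferon-stimulated genes 25 are counted lower and 0 higher.

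Both lines carried some markers of neural stem and progenitor cells at high levels. Vim, an intermediate filament of progenitors, was at 422, 451 and 423 FPKM in PIC496-4 and 421, 452 and 425 FPKM in PC134-0, and Fabp7, a fatty acid binding protein of radial glia, at 418 ± 18.5 and 434 ± 19.2 FPKM (SD, n = 3). Nes was at 62.5 and 46.9 FPKM, Sox2 at 103 and 227 FPKM and Olig2 at 199 and 239 FPKM. Nes, Sox2 and Olig2 were picked after their values were seen, to check the labelled cell type. These markers were thus measured in both lines, with Sox2 lower in PIC496-4. Other members of the progenitor lists, such as Hes5, were near 0 in PIC496-4, as given below.

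Beside these shared markers, some regulators were far lower in PIC496-4. Of 17 listed neural stem genes 15 were measured above the limit, 5 were counted lower and 1 higher. Hes5, a Notch effector that keeps neural stem cells undifferentiated, was at 0.0444, 0 and 0.159 FPKM in PIC496-4 and at 8.85, 4.54 and 6.76 FPKM in PC134-0 (log2 difference -3.63). Pax6, a transcription factor of dorsal progenitors, was at 0.259 and 2.91 FPKM, and Hopx, a marker of outer radial glia, at 1.62 and 5.56 FPKM. The member counted higher was Fut4, which makes the SSEA-1 surface sugar, at 2.30 and 0.196 FPKM.

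Oligodendrocyte progenitor genes were split. Olig1, the most abundant, was at 310 and 412 FPKM, under 2-fold apart, whereas 7 of the 14 members measured above the limit were counted lower and 1 higher, with a median of -1.10. Pdgfra, the growth factor receptor that marks these progenitors, was at 0.429, 0.607 and 0.270 FPKM in PIC496-4 and at 12.6, 12.5 and 11.95 FPKM in PC134-0 (-3.80). Lhfpl3 was at 0.285 and 11.7 FPKM (-3.95), and the proteoglycan NG2, encoded by Cspg4, at 5.87 and 33.3 FPKM. C1ql1 was the member counted higher, at 9.32 and 1.99 FPKM. Of 17 members tested in PIC496-3 against PC326-1, 3 passed as higher and 1 as lower. There Lhfpl3 was higher in PIC496-3, by 2.57, opposite to the pair, and Pdgfra was at -0.97, under 2-fold.

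Genes of mature glia and neurons were mostly counted lower in PIC496-4 or not counted. For oligodendrocytes, 3 of 5 members above the limit were counted lower, among them Bcas1 at 4.40 and 19.4 FPKM and Cnp, a myelin enzyme, at 7.998 and 30.5 FPKM. For astrocytes, 8 of 16 were counted lower and 1 higher: Sox9, a glial transcription factor, was at 15.1 and 92.3 FPKM, the lipid carrier Apoe at 1.74 and 17.7 FPKM, and the glutamate transporter Slc1a2 at 2.94 and 13.8 FPKM. The one astrocyte gene counted higher was the water channel Aqp4, at 1.57 and 0.0158 FPKM, and the most abundant, Sparcl1, was at 325 and 424 FPKM. For neurons, 5 of 7 were counted lower, with the tubulin Tubb3 at 2.71 and 27.0 FPKM and the growth cone protein Gap43 at 7.19 and 49.7 FPKM. For the second pair, 7, 16 and 11 members of these lists were tested. Of the oligodendrocyte genes 0 passed as higher and 1 as lower, of the astrocyte genes 3 and 3, and of the neuronal genes 4 and 1. Tubb3 was lower there by 2.82 while Gap43 was higher by 2.11.

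The gene furthest below PC134-0 was Cd93, a transmembrane receptor known from endothelial and myeloid cells. It was at 0.145, 0.205 and 0.114 FPKM in PIC496-4 and at 363, 372 and 336 FPKM in PC134-0, a log2 difference of -9.09. The other 5 lines had it at 27.6 to 187 FPKM, so PIC496-4 was the line at near 0. The endothelial list, given above, summed to no more than 2.77 FPKM in PC134-0.

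Other genes followed Cd93 in size. Lrrn1, a leucine-rich repeat protein of neural tissue, was at 1.06, 1.75 and 1.57 FPKM in PIC496-4 and at 81.4, 80.4 and 75.8 FPKM in PC134-0 (-5.36). It was at 11.03 to 54.8 FPKM in the other lines. Astn1, which acts in neuron migration along glia, was at 0.0905 and 38.9 FPKM (-6.06), and the glial connexin Gjc3 at 0.0516 and 26.1 FPKM (-5.59). Tub was at 0.283 and 30.8 FPKM and the small GTPase Diras2 at 0.425 and 32.5 FPKM. The metabotropic glutamate receptor Grm3 had no fragment in the 3 PIC496-4 libraries and was at 14.8, 15.7 and 13.1 FPKM in PC134-0, at least 781-fold higher against a floor of 3 fragments over the group. Galnt17, a glycosyltransferase, was at 0.0115 and 13.2 FPKM, Rgs7bp, which anchors G-protein regulators, at 0.0451 and 12.8 FPKM, and Lhx2, a LIM homeobox factor of forebrain progenitors, at 0.0889 and 13.8 FPKM.

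Of the other genes furthest below PC134-0, Fbln2, a fibulin of elastic fibres, was at 4.29, 3.69 and 3.94 FPKM in PIC496-4 and at 173, 164 and 169 FPKM in PC134-0 (-5.24). Fkbp10, a chaperone of collagen folding, was at 0.646 and 37.9 FPKM (-5.09), Itih5 at 0.0164 and 17.7 FPKM (-5.14) and the collagen chain Col5a2 at 0.223 and 17.4 FPKM (-4.65). In the second pair all 4 passed as lower: Fbln2 by 1.52, Itih5 by 2.00, Col5a2 by 2.62 and Fkbp10 by 4.89, the last from 37.4 to 0.777 FPKM (limma adjusted p = 1.02e-13). Gstt1, a glutathione transferase, was at 0.965 and 35.8 FPKM in the pair (-4.64), and was lower by 3.79 in the second pair. Gstt1 was at 33.5 FPKM in PC326-1 and at 1.97 to 3.42 FPKM in the remaining lines, PC308-1 among them.

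The mesenchymal and matrix list had a median near 0. More of its members were counted lower than higher, as among all genes of the pair (12% lower, 7.06% higher). Of 30 listed genes 24 were measured above the limit, 6 were counted lower and 1 higher, with a median of -0.00. The crosslinking enzyme Lox was at 0.119 and 7.28 FPKM, Col6a1 at 0.954 and 7.19 FPKM, Col5a1 at 2.98 and 15.6 FPKM and fibronectin, Fn1, at 16.2 and 62.7 FPKM. Of 27 members tested in PIC496-3 against PC326-1, 5 passed as lower and 2 as higher, with Lox lower by 3.10, Col6a1 by 2.31 and Col5a1 by 1.26.

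Among the genes higher in PIC496-4, those with the largest differences held a cell cycle inhibitor, homeobox genes and imprinted transcripts. Cdkn1c, the imprinted gene of the inhibitor p57, lies on the minus strand of chromosome 7 at 143458339 to 143461050. It was at 29.9, 26.7 and 31.4 FPKM in PIC496-4 and at 0, 0 and 0.0266 FPKM in PC134-0, from 3180 fragments against 1. The ratio of 3062 has a 95% counting interval of 549 to 120975. Between PIC496-3 and PC326-1 Cdkn1c was higher by 2.43 (limma adjusted p = 4.49e-07), at 2.52 and 0.0603 FPKM.

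Of 24 listed imprinted genes 15 were measured above the limit, 6 were counted higher and 3 lower. The maternally expressed RNA H19 was at 9.55 and 0.00801 FPKM, from 1251 fragments against 1, and was higher by 1.91 in the second pair. Ndn, a paternally expressed gene of the MAGE family, was at 7.86 FPKM in PIC496-4 and had no fragment in PC134-0 or PC326-1, at least 495.5-fold higher in the pair. In the remaining 4 lines Ndn was at 4.71 to 18.9 FPKM. Peg3, a paternally expressed zinc finger gene, was at 16.9 and 2.81 FPKM. Of 14 members tested in PIC496-3 against PC326-1, 5 passed as higher and 2 as lower, Ndn being higher by 4.69 (limma adjusted p = 4.88e-14).

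Some genes were at or near 0 in PC134-0 and PC326-1 and measured in all other lines. Dgkz, a diacylglycerol kinase, was at 24.5 FPKM in PIC496-4, against 0.00288 FPKM in PC134-0, from 8150 fragments against 1. It had no fragment in PC326-1 and 13.5 to 28.6 FPKM in the remaining lines, and it was higher by 5.86 in the second pair (limma adjusted p = 2.49e-17). Rpl34, a ribosomal protein gene, was at 85.5 FPKM in PIC496-4, 2.73 in PC134-0, 1.76 in PC326-1 and 50.7 to 83.3 FPKM elsewhere. Rpl34 has processed pseudogenes that could share its reads, so its value is uncertain. These genes set PC134-0 and PC326-1 apart from the third IDH1 WT line, PC308-1, as well.

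Other genes far above PC134-0 were of mixed function. Nkx2-4 was at 9.24 and 0.0236 FPKM, from 848 fragments against 2, the guidance cue Slit1 at 21.6 and 0.703 FPKM, and the cardiac actin Actc1 at 14.2 and 0.402 FPKM. Aldh1a7, an aldehyde dehydrogenase, was at 6.98 FPKM against no fragment, at least 246-fold higher. Dcpp1 was at 12.2 FPKM against no fragment, at least 129-fold higher, but has near-identical copies that could share its reads.

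Homeobox genes, which set regional identity along the neural tube, went both ways. Of 41 listed 20 were measured above the limit, 5 were counted higher and 9 lower. The list leaves out Nkx2-4 and most HoxA genes, which are described apart. Of its members, Barhl2 was higher, at 7.06 and 0.0273 FPKM, while Meis2 was lower, at 0.0498 and 6.001 FPKM, as was Irx2, at 0.683 and 11.9 FPKM. Of 25 members tested in PIC496-3 against PC326-1, 4 passed as higher and 7 as lower.

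Within the HoxA cluster on chromosome 6 the 2 lines differed by position, a pattern noticed after the values were seen. Towards the 3′ end, Hoxa2, Hoxa3 and Hoxa4 had log2 differences of -0.97, -0.77 and -0.72. From Hoxa5 to Hoxa10 the levels were higher in PIC496-4: Hoxa5 at 36.6 and 9.38 FPKM, Hoxa6 at 26.7, 24.0 and 29.0 against 0.135, 0.0722 and 0.124 FPKM, and Hoxa7 at 18.9 and 0.895 FPKM. Hoxa9 was at 8.36 FPKM against no fragment, at least 793-fold higher, and Hoxa10 at 6.97 and 0.00603 FPKM. Hoxa11 and Hoxa13 were under the level limit in both lines. PC134-0 was the lowest line for Hoxa6, at a mean under that of every other line. The direction was the opposite for Hoxa5 to Hoxa10 in the second pair, and 3 of these genes passed there, with Hoxa6 lower in PIC496-3 by 2.87 (limma adjusted p = 2.6e-08), Hoxa7 by 2.12 and Hoxa10 by 2.34.

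**Figure D4:**
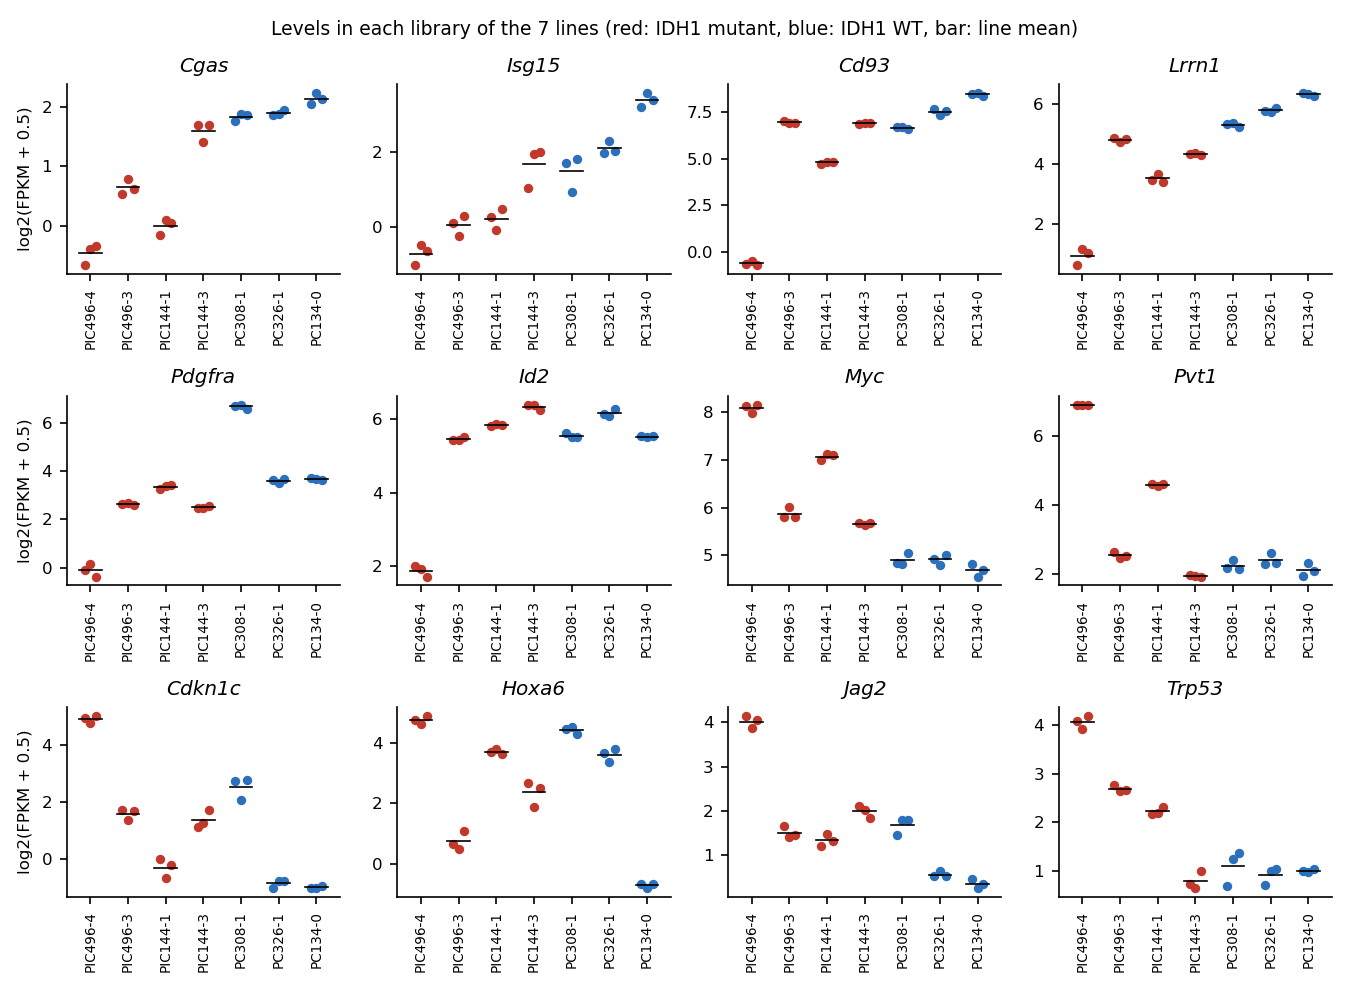
Log2(FPKM + 0.5) of 12 genes in each of the 3 libraries of the 7 lines, red for IDH1 mutant and blue for IDH1 WT lines, with bars at line means. Cd93, Id2 and Lrrn1 are lowest in PIC496-4, Hoxa6 is lowest in PC134-0, and Myc and Pvt1 are highest in PIC496-4.

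The noncoding RNA Pvt1, on the plus strand of chromosome 15 at 62037986 to 62378096, was at 121, 120 and 121 FPKM in PIC496-4 and at 3.32, 4.51 and 3.75 FPKM in PC134-0 (log2 difference 4.80). The next highest line, PIC144-1, had 23.7 FPKM. Because Pvt1 lies beside the oncogene Myc, the genes around it were examined after this value was seen. Myc, a transcription factor of growth and proliferation, was at 277, 251 and 285 FPKM in PIC496-4 and at 27.7, 23.05 and 25.4 FPKM in PC134-0 (3.39). It was at 134 FPKM in PIC144-1 and at 29.5 to 58.2 FPKM in the remaining 4 lines.

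Of the genes that start within 5 Mb of Myc and passed the level limit, those counted higher were Myc, Pvt1 and H2afy3. H2afy3, a processed pseudogene inside Pvt1, was at 9.86 and 0.218 FPKM, and its reads may come from Pvt1 or from its parent gene. On either side, Fam84b, which starts 1.17 Mb before Myc, was at 4.27 and 2.46 FPKM, and Fam49b, 1.94 Mb after it, at 8.66 and 7.11 FPKM. Trib1, 2.34 Mb before Myc, was lower in PIC496-4, at 7.99 and 17.2 FPKM. In PIC144-1 Fam84b was at 34.6 and Fam49b at 84.5 FPKM, while Trib1 was at 13.2 FPKM, below every line but PIC496-4. Of the related genes, Mycn was under the level limit in both lines, at 0.0232 and 0.423 FPKM, and Mycl was counted lower, at 1.72 and 3.99 FPKM. The Myc partner Max was counted higher, at 22.3 and 9.62 FPKM. The data hold no measure of DNA copy number, and its part in these levels was not tested.

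Whole chromosomes were then compared over the 7983 genes with at least 5 FPKM in one of the lines, a view chosen after the values were seen. Their median log2 difference was 0.07. On chromosome 12 their median was 0.89, and of all its 493 genes of the pair, whose median was 0.75, 157 (31.8%) were counted higher. On chromosome 13 the median was -0.46, and of all its 594 genes of the pair, with a median of -0.498, 131 (22.1%) were counted lower. Chromosomes 6 and 2 had medians of -0.27 and -0.19, and the other autosomes lay between 0.04 and 0.18. In the second pair the medians were 0.66 on chromosome 12 and -0.41 on chromosome 13.

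Against the mean of the 7 lines, genes of chromosome 12 lay at -0.55 in PC134-0 and -0.57 in PC326-1. They lay at 0.34 in PIC496-4, 0.29 in PIC496-3 and 0.51 in PC308-1, which is IDH1 WT. PIC144-1 and PIC144-3 were in between, both at -0.03. Without chromosomes 12 and 13, 775 genes were counted higher and 1448 lower. The part of these chromosomes in the higher and lower genes was not tested beyond that recount.

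**Figure D5:**
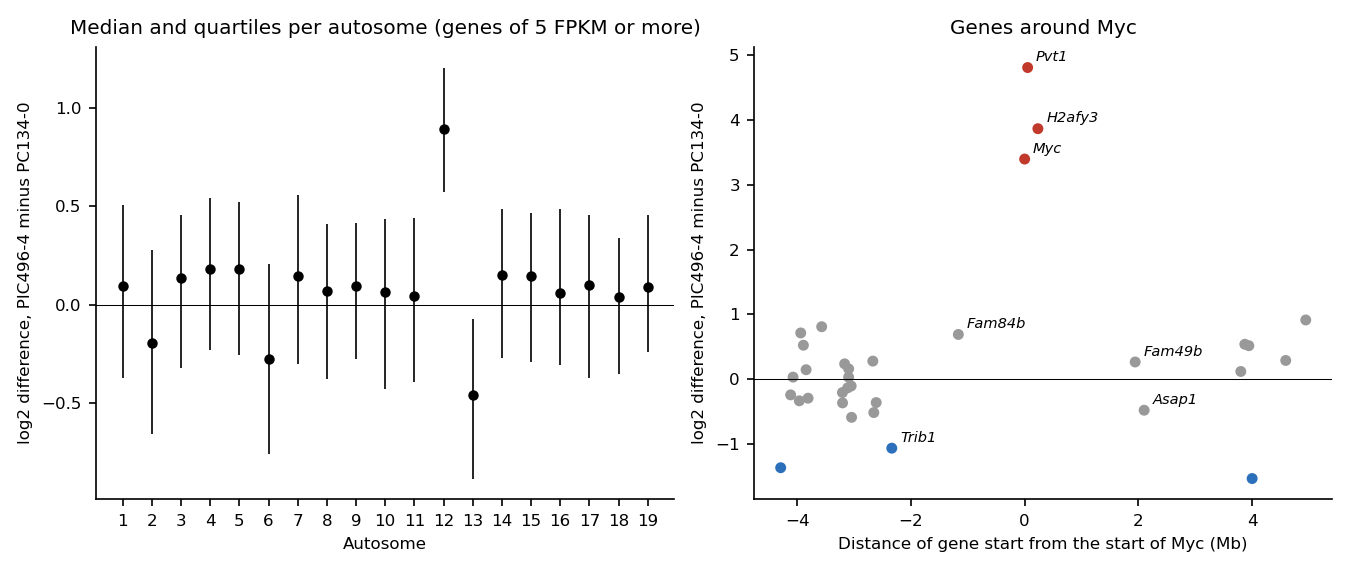
Left, median and quartiles of the log2 difference (PIC496-4 minus PC134-0) for genes of at least 5 FPKM on each autosome, with chromosome 12 at 0.89 and chromosome 13 at -0.46. Right, log2 difference of genes by distance from the start of Myc in Mb, where Myc, Pvt1 and H2afy3 stand above their neighbours.

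Growth factor receptors and their ligands were counted lower or not counted. Of 32 listed 21 were measured above the limit, 9 were counted lower and 0 higher, with a median of -0.91. The stem cell factor receptor Kit was at 0.0871 and 5.45 FPKM, the neurotrophin receptor Ntrk3 at 0.225 and 5.12 FPKM and the ligand Pdgfc at 0.309 and 4.00 FPKM, besides Pdgfra above. Of 23 members tested in PIC496-3 against PC326-1, 2 passed as higher and 4 as lower.

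In the Notch pathway, the ligand Jag2 and the targets Hey1 and Hes5 differed in opposite directions. Of 20 listed genes 17 were measured above the limit, 3 were counted higher and 7 lower. The ligand Jag2 was at 17.1, 14.1 and 15.9 FPKM in PIC496-4 and at 0.874, 0.698 and 0.778 FPKM in PC134-0 (log2 difference 3.66). The target Hey1 was at 3.38 and 19.8 FPKM, the feedback inhibitor Nrarp at 1.27 and 8.23 FPKM, and Hes5 near 0 as given above. Of 17 members tested in PIC496-3 against PC326-1, 0 passed as higher and 1 as lower.

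For BMP and TGF-beta signalling, the target genes Id1 and Id2 were much lower in PIC496-4 than in PC134-0. Of 28 listed 23 were measured above the limit, 9 were counted lower and 1 higher. Id2, a BMP target that blocks differentiation factors, was at 3.501, 3.29 and 2.78 FPKM in PIC496-4 and at 45.7, 44.8 and 46.0 FPKM in PC134-0 (-3.65). It was at 43.6 to 80.7 FPKM in the other 5 lines, so the low level was that of PIC496-4. Id1 was at 3.75 and 33.8 FPKM, the ligand Bmp7 at 2.29 and 28.6 FPKM, and the receptor Bmpr1b at 0.0597 and 3.86 FPKM. The other 5 lines had Id1 at 3.25 to 11.7 FPKM, so for Id1 the high level was that of PC134-0. PIC144-1 had Bmp7 at 2.26 FPKM, about as low as PIC496-4. Between PIC496-3 and PC326-1, 2 of 24 passed as higher and 1 as lower, and Bmpr1b was higher by 1.53, opposite to the pair.

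For Wnt signalling, 26 of 36 listed genes were measured above the limit, 9 were counted lower and 2 higher, the latter near the 7.06% of all genes. The ligand Wnt7a was at 1.05 and 24.5 FPKM (-4.02) and Wnt5a at 1.04 and 9.04 FPKM. The secreted Wnt antagonists differed in opposite directions, with Sfrp2 at 19.7 and 1.98 FPKM (3.03) and Sfrp1 at 0.0931 and 3.40 FPKM. Of 28 members tested in PIC496-3 against PC326-1, 1 passed as higher and 5 as lower, with Sfrp1 lower by 1.95.

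Of the proliferation genes all 30 listed were measured above the limit. Of these 2 were counted higher, a share near the 7.06% of all genes, and 0 lower, where 12% of all genes were lower. Positive differences were seen for 23, with a median of 0.23, where 50.03% of all genes of the pair had one. The 2 were Ccne1, cyclin E1, at 14.97 and 4.93 FPKM, and Rrm2, a ribonucleotide reductase subunit, at 49.1 and 22.4 FPKM. Mcm7, a subunit of the replicative helicase, was at 60.8 and 33.4 FPKM. For the second pair, 0 of 30 passed in either direction.

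Of 28 listed genes of the p53 and RB pathways 27 were measured above the limit, 6 were counted higher and 3 lower. Over all genes of the pair 7.06% were counted higher and 12% lower, so the lower count is near its share. Trp53, the tumour suppressor p53, was at 16.3, 14.5 and 17.6 FPKM in PIC496-4 and at 1.51, 1.48 and 1.58 FPKM in PC134-0 (3.03). It was higher in PIC496-3 than in PC326-1 as well, by 1.77 (limma adjusted p = 3.56e-07). FPKM do not show whether the transcript is intact. Cdkn1b, the cell cycle inhibitor p27, was lower in PIC496-4, at 26.9 and 92.9 FPKM, and Gdf15, a p53 target and stress cytokine, was higher, at 2.49 and 0.503 FPKM.

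Metabolic lists held differences in both directions. Of the 2-oxoglutarate and glutamate genes, the pathway of IDH1 itself, 27 of 28 were measured above the limit, 8 were counted higher and 3 lower, with a median of 0.54. Slc1a5, a glutamine transporter, was at 29.7, 27.2 and 28.6 FPKM in PIC496-4 and at 4.04, 3.77 and 4.23 FPKM in PC134-0 (2.68). Gad1, which makes GABA from glutamate, was at 0.0408 and 1.81 FPKM, and cysteine dioxygenase, Cdo1, at 0.762 and 3.53 FPKM. In the second pair 1 of 27 passed as higher and 3 as lower. Cdo1 was lower there by 2.30 and Gad1 higher by 2.07, opposite to the pair.

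Of 26 glycolysis genes 24 were measured above the limit, 2 were counted higher and 4 lower. Over all genes of the pair 7.06% were counted higher and 12% lower. The counts of the list are near these shares and are not read as a trait of it. Pfkp, the platelet form of phosphofructokinase, was at 4.45, 4.02 and 4.56 FPKM in PIC496-4 and at 72.6, 73.9 and 72.2 FPKM in PC134-0 (-3.92), and Ldhb, a lactate dehydrogenase subunit, at 37.5 and 241 FPKM (-2.67). Eno2, an enolase of neurons, was at 11.2 and 42.6 FPKM and the lactate exporter Slc16a3 at 39.3 and 107 FPKM. In the second pair, 0 of 24 passed as higher and 4 as lower, Pfkp by 1.61, Ldhb by 1.32 and Slc16a3 by 1.02, the last at the edge of 2-fold.

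All 26 hypoxia-response genes were measured above the limit, with 3 counted higher and 3 lower, near the shares of all genes. Both lines were grown at the same low oxygen. Car12, a carbonic anhydrase, was higher in PIC496-4, at 26.6 and 5.26 FPKM. The respiratory chain proteins Ndufa4l2, at 1.65 and 16.8 FPKM, and Cox4i2, at 0.677 and 11.1 FPKM, were lower, and in PIC496-3 against PC326-1 they were lower by 4.20 and 3.14. Of 25 cholesterol genes 23 were measured above the limit, 20 had positive differences with a median of 0.56, 4 were counted higher and 2 lower. Hsd17b7, an enzyme of cholesterol synthesis, was at 38.4 and 15.02 FPKM, and the cholesterol exporter Abca1 at 0.00564 and 0.664 FPKM. In the second pair, 1 of 22 cholesterol genes passed as higher and 0 as lower.

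The genes counted in the pair were then followed into the libraries of the second pair. Of the 942 higher genes 900 were tested in PIC496-3 against PC326-1, where 735 (81.7%) had the same sign and 240 (26.7%) passed in the same direction, against 23 (2.56%) in the opposite one. Those 240 make up 38.4% of the 625 genes that passed as higher there. Of the 1606 lower genes 1562 were tested, 1156 (74.0%) had the same sign, 370 (23.7%) passed in the same direction and 79 (5.06%) in the opposite one. Those 370 make up 59.0% of the 627. Over all tested genes 49.7% of signs were positive and 49.4% negative. The median log2 differences of the higher genes were 1.29 in the pair and 0.55 in the second pair, and of the lower genes -1.52 and -0.48.

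The second pair shares no libraries with the first, but PC326-1 closely resembles PC134-0, with a correlation of 0.983. PIC496-3 was not especially like PIC496-4, with a correlation of 0.936 to it and of 0.941 to PC134-0. PC326-1 was nearer to PIC496-4 than to PC134-0 in only 8.07% of the higher and 10.8% of the lower genes. The other IDH1 WT line, PC308-1, was nearer to PIC496-4 in 46.4% and 32.0% of them, and PIC144-3, an IDH1 mutant line, in 38.004% and 34.4%. PIC496-3 was nearer to PIC496-4 in 53.8% and 46.5% of them, and PIC144-1 in 57.6% and 54.8%. Shared origin of lines with a common number is not given by the labels, and its part in the repeat was not tested.

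Each gene was also described by where the largest step in the order of the 7 line means fell. For 294 of the higher genes (31.2%) and 588 of the lower genes (36.6%) it separated PIC496-4 from all 6 other lines. For 198 (21.02%) and 174 (10.8%) it separated PC134-0 and PC326-1 from the rest. It matched the genotype labels for 26 (2.76%) and 62 (3.86%). PIC496-4 was chosen as the line furthest from PC134-0, which favours a step beside it, so these shares are a description of the counted genes and are not read for or against genotype.

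In the other 5 lines, with 3 IDH1 mutant against 2 IDH1 WT line means, limma called 0 of 13079 genes (0%) at an adjusted p under 0.05, and 517 (3.95%) had an unadjusted p under 0.05. The smallest adjusted p was 0.0696. Without the trend and robust options limma called 2 genes, Igsf21 and Mfap2, both lower. The sign was the same as in the pair for 78.7% of 850 higher and 78.5% of 1499 lower genes tested there, where 51.8% of all genes had a positive and 48.2% a negative sign. Of the higher genes 77 (9.06%) had an unadjusted p under 0.05 with the same sign, against 1.62% of all genes, and of the lower genes 163 (10.9%), against 2.33%. PC326-1, among the 2 IDH1 WT lines here, had a correlation of 0.983 with PC134-0. Its likeness favours the same sign for genes counted in the pair. These shares are therefore a description and are not read for or against genotype.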

How the data were processed

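The authors deposited FPKM, a level per gene length and library size. HISAT2 was used with the build mm39, per the submitters' processing notes, and the sources used here give neither the counter nor the annotation nor whether counting used strand. GENCODE (GRCm38) holds 54495 of the 54532 gene IDs, 53548 of them at exactly the position in the file, so positions are given as GRCm38. Without a stated use of strand, reads of overlapping or antisense genes cannot be told apart. Date-like symbols (27) were restored by gene ID. FPKM times length gave whole fragments for 100% of values under 1000 fragments (tolerance 0.05 fragments). Libraries within a line all differed by more than counting noise, with a chi-square per gene of 3.79 to 26.9.

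The pair was compared on log2(FPKM + 0.5) as described in the report. Fold changes are on this scale and understate those of genes near 0. Fold bounds use a floor of 3 fragments over the 3 libraries, and counting intervals are exact at 95% and cover counting error only. Tests used limma 3.58.1 in R 4.3.3 (trend and robust, Benjamini-Hochberg adjustment over all genes tested) on 15 libraries of the other 5 lines, or on their line means by genotype, with genes of at least 0.5 FPKM kept. The fit was also run on simulated data. Python 3.11.15, pandas 2.3.3, numpy 2.4.6, scipy 1.17.1 and matplotlib 3.10.9 were used otherwise.

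The pair, the 26 gene lists and the tests were chosen with earlier results of these data known. The text names Cgas, Idh1, the 15 largest differences each way among counted protein-coding or lncRNA genes with a mean of at least 2 FPKM that have no predicted or clone symbol, and of each list the 4 members with the largest difference and, for cell types, the most abundant, except that a few such genes are not reported here. Other named genes, such as Sting1, Myc and its neighbours, the other HoxA genes, Mcm7 and single list members counted against their list, were chosen after their values were seen. Libraries of the pair with the same replicate number deviated together (correlation 0.110 to 0.472 in all 3 number pairs), and those of PIC496-3 and PC326-1 did not (-0.26 to -0.04). Between libraries of the pair with unlike numbers the correlation was -0.360 to 0.281, so the ranges overlap and a shared batch is not shown.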

Additional observations from a re-analysis of the deposited data

Results flagged for a closer look

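For 7 of the genes examined, the difference was at least 2-fold in both pairs with opposite signs, with no overlap of libraries in either and a limma adjusted p under 0.05 in PIC496-3 against PC326-1. Other named genes, such as Galnt17, also turned sign at under 2-fold there. The difference between the pairs was itself not tested, and the pair was chosen from the data. Higher in PIC496-4 than in PC134-0 but lower in PIC496-3 than in PC326-1 were the HoxA genes Hoxa6 (log2 difference 5.47 in the pair and -2.87 in PIC496-3 against PC326-1), Hoxa7 (3.796 and -2.12) and Hoxa10 (3.88 and -2.34), which are neighbours and not separate cases. Lower in the pair but higher in PIC496-3 were Lhfpl3 of oligodendrocyte progenitors (-3.95 and 2.57), the growth cone gene Gap43 (-2.72 and 2.11), the BMP receptor gene Bmpr1b (-2.95 and 1.53) and Gad1, which makes GABA (-2.10 and 2.07).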

How the results depend on the processing

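Of the counted and tested values named here, none changed direction under the alternatives that were run. With a limit of 4-fold the pair gave 607 genes (130 higher, 477 lower). In PIC496-3 against PC326-1 a pseudocount of 0.1 gave 1908 genes (1003 lower), and limma voom on the recovered fragments gave 2100 (989 higher, 1111 lower). In the other 5 lines limma without trend or robust called 2 genes, both lower, in place of 0. Leaving out replicates gave 2572 to 2713 genes in the pair (939 to 1032 higher, 1599 to 1690 lower), 1231 to 1328 in PIC496-3 against PC326-1 (606 to 651 higher, 612 to 680 lower) and 0 in the other 5 lines. With the replicate block the counts were 2566 (956 higher, 1610 lower) in the pair, an alternative added after seeing the data, and 1256 (629 higher, 627 lower) in PIC496-3 against PC326-1, and it ended no other call named here. Rescaling to TPM moved the median of all genes to -0.11 and the split to 735 higher and 1824 lower (28.7% higher in place of 37.0%). The median log2 difference of chromosome 12 was 0.17 with no filter on level. The correlation of the pair was the lowest under all 6 settings tried. In PIC496-3 against PC326-1, Ifit1, Ccl5, Aldh1a7 and Flt1 went under 2-fold with a pseudocount of 1, and Slc16a3 without replicate 2 or without PIC496-3 replicate 2. Lists lost or gained members with the setting, with 19 to 27 interferon-stimulated genes counted lower, and the medians of cytosolic DNA sensing, pericyte, p53 and RB, and hypoxia genes changed sign. Depth limits genes near 0, such as Cgas in PIC496-4 with 51 fragments.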
